A study of Mus musculus with 11 samples.

Results

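The Igsf21 stretch is a segment of 270 kb of mouse chromosome 4, from 139560001 to 139830000 on the mm9 build, around the gene Igsf21. Its members were all peaks of 6 deposited autosomal peak lists that overlapped the segment by at least 1 bp. There were 39 of them among 19818 peaks in all. The segment was chosen by measured values, because the female fibroblast list covered more of it than the day 4 lists did. That contrast is given here as a description and supports nothing further.

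The lists come from RNA antisense purification of Xist followed by DNA sequencing, in which biotinylated probes against Xist pull down the crosslinked chromatin that the RNA touches. The pulldowns were from female epiblast-like cells (EpiLCs), which were made by moving embryonic stem cells from 2i and LIF into bFGF and Activin A, after 2 days (D2, n = 2) or 4 days (D4, n = 2), and from female and male mouse embryonic fibroblasts (MEFs, n = 1 each). No group received a further agent, and the labels name no strain, genotype, clone or age for any of them. The labels mark replicate 1 of both EpiLC days as earlier data analysed again, so replicate number and data origin go together, and nothing says that replicates are separate cultures. Of the 11 samples, 5 are inputs and were not analysed here as separate data.

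Xist is a long noncoding RNA made from the inactive X chromosome of female cells, which it coats in cis and silences with the help of Polycomb and other repressive complexes. Male cells normally keep Xist off, so the male list shows what the pulldown yields in fibroblasts without the coated chromosome. Igsf21 encodes an immunoglobulin superfamily protein of the cell surface that is known from inhibitory synapses of neurons. In the RefSeq gene order its nearest protein-coding neighbours are Pax7, a transcription factor of muscle progenitors, and Klhdc7a on one side, and Arhgef10l and Rcc2, a regulator of chromosome condensation, on the other. The noncoding genes Gm52685, Gm13029 and Gm33542 lie within the span of Igsf21 in that order. The gene table is on GRCm38 and the peaks are on mm9, so exons, introns and the promoter were not placed within the stretch, and no genome of the peaks' build was used here. The lists hold no expression values, so cell type markers could not be examined.

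The start of Igsf21 is shown to identify the gene that names the stretch, by the 250 bases upstream of its transcription start in RefSeq (GRCm38.p6, minus strand of chromosome 4, written 5′ to 3′), with every CG dinucleotide in capitals.
Igsf21 upstream sequence: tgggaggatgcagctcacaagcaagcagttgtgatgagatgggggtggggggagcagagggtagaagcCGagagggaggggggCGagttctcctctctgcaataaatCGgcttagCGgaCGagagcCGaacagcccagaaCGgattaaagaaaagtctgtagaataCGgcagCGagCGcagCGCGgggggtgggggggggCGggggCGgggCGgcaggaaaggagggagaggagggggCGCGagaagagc
These 250 bases held 17 CG dinucleotides and 63.6% G or C. Over 32851 promoter sequences of the same table and length the medians were 6 CG and 52.4%, and 23.5% held at least 17 CG (CG reads the same on both strands). This describes the gene's start and says nothing of Xist there.

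The female MEF list covered nearly all of the stretch, each D2 list less, each D4 list less again, and the male list almost nothing. The length under peaks was 256.4 kb in female MEFs, 145.3 and 111.3 kb in D2 replicates 1 and 2, 47.0 and 33.8 kb in D4 replicates 1 and 2, and 0.179 kb in male MEFs. As shares of the stretch these were 94.95%, 53.8% and 41.2%, 17.4% and 12.5%, and 0.0663%. Each D2 list thus covered more than each D4 list, and the female MEF list more than any EpiLC list.

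The female list of the fibroblasts held few and long peaks here, and the EpiLC lists more and shorter ones. Female MEFs had 4 peaks with a median length of 127.3 kb, D2 replicates 10 and 12 peaks (medians 6.22 and 6.67 kb), D4 replicates 7 and 5 peaks (4.10 and 3.56 kb) and male MEFs 1 peak. The number of peaks therefore ran against the length covered between female MEFs and the EpiLCs. The sequencing depth of the libraries is unknown, and the length a caller reports can grow with depth.

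**Figure D1:**
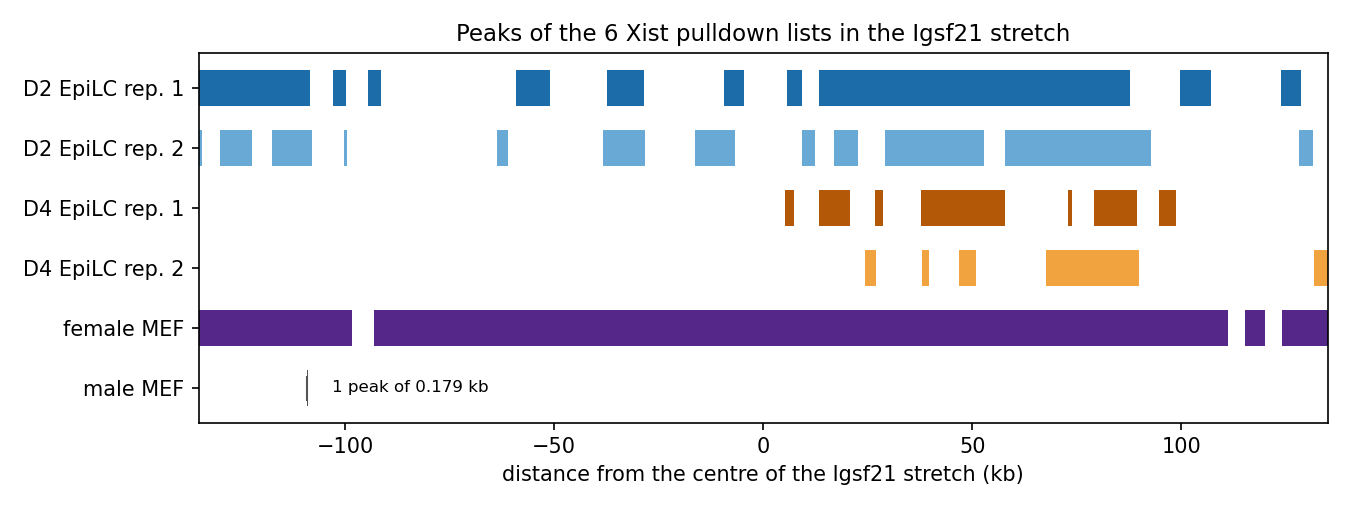
Peaks of each list drawn to scale as bars along the Igsf21 stretch (horizontal axis, distance from its centre in kb), one row per list and cut at the borders of the stretch. The female MEF bars fill 94.95% of the row, D2 bars 53.8% and 41.2%, D4 bars 17.4% and 12.5% and only right of the centre, and the male row holds a single peak of 0.179 kb.

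At D2 the mean cover was 128.3 ± 24.0 kb and at D4 it was 40.4 ± 9.30 kb (SD, n = 2 each). They differed by 87.9 kb, more than either SD, a ratio of 3.17. Within replicate 1, the earlier data, the ratio was 3.09, and within replicate 2 it was 3.29. No test was made, since the stretch was chosen with these lists known. Of 2464 autosomal windows of 270 kb covered by any EpiLC list, both D2 lists covered more than both D4 lists in 64.9%. This share was 19.4% with lists of equal number, 36.3% with a −log10 q of at least 2 and 17.8% over all windows, covered or not. Over whole lists the ratio of D2 to D4 mean length under peaks was 9.79, so the ratio at Igsf21 was below that of the lists.

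The order of the days depended on how many peaks of each list were kept. With every list reduced to its 326 peaks of highest deposited −log10 p, the size of the male list, both D2 lists kept 0 kb in the stretch, while D4 replicates 1 and 2 kept 26.1 and 22.2 kb and the female MEF list kept all of its 256.4 kb. D2 then lay below D4 by 24.2 kb (difference of D2 minus D4, -24.2 kb).

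Female MEFs covered 6.34 times the D4 mean and 2.00 times the D2 mean, a difference from D4 of 216.0 kb. Against D4 replicates 1 and 2 singly the ratios were 5.46 and 7.58. The whole female MEF list was 2.05 times as long as the D4 mean. Among 900 windows covered by the female MEF list or a D4 list, the female MEF list covered more than both D4 lists in 29.1%. As the choice of the stretch used this contrast, nothing is read from it. MEFs have 1 library per sex and no replicate check.

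Set against the length of its own list, the stretch was more densely covered than the autosomes on average in each female list. Its covered share was 17.0 and 18.0 times the share of the autosomal extent that the list covered in D2 replicates 1 and 2, 52.5 and 55.3 times in D4 replicates 1 and 2, 166.3 times in female MEFs and 3.31 times in male MEFs. By this measure the days ran the other way, with 17.5 ± 0.758 at D2 and 53.9 ± 1.98 at D4 (SD, n = 2 each). Among 9011 windows of 270 kb tiled over the autosomes, 4 had more female MEF cover than the stretch, 42 and 28 more D4 cover, and 149 and 124 more D2 cover. The male value rests on 1 peak of 179 bp, and 304 of the 316 windows with any male cover had more of it than the stretch. Cover of at least 90% in female MEFs, as here, occurred in 0.0999% of windows, and cover in all 5 female lists in 0.943%. As the stretch was chosen by its cover, these densities, ranks and shares follow in part from the choice and support nothing further.

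Of the 4 female MEF peaks, 3 were among the longest of their list and the other was shorter than the list median of 5.52 kb. The main one ran from 139601940 to 139806211 (204.3 kb, fold enrichment 3.08, −log10 q 1.79) and was the fifth longest of 1020. The sixth longest, from 139819105 to 140016734 (197.6 kb, fold enrichment 3.02, −log10 q 1.70), entered the stretch by 10.9 kb and went on past it. Before them lay a peak from 139539620 to 139596513 (56.9 kb, fold enrichment 2.99), which began outside the stretch, and between them one from 139810282 to 139814978 (4.70 kb, fold enrichment 3.06). The 3 gaps between these 4 peaks measured 4.07 to 5.43 kb, 13.6 kb in sum. All 4 had a fold enrichment, the caller's linear ratio over background, above the list median of 2.90.

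The stretch was a part of a longer female MEF domain. Joining female MEF peaks less than 10 kb apart gave a run from 139518671 to 140049201 (530.5 kb), the fourth longest of 650 such runs. The female MEF list covered 93.8% of it, D2 replicates 1 and 2 covered 43.8% and 34.8%, D4 replicates 21.9% and 12.1%, and male MEFs 0.0337%.

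The borders of the stretch did not bound the domain on either side. In the window of 270 kb before it, cover was 60.8% in female MEFs, 68.4% and 37.5% at D2, and 11.3% and 1.43% at D4. In the window after it, cover was 75.8% in female MEFs, 20.2% and 18.1% at D2, and 28.8% and 11.2% at D4. D2 cover thus lay below that of D4 replicate 1 after the stretch, where the days overlapped. One window further out, female MEF cover was 1.31% before and 0.927% after, and D4 cover was at most 0.312%, while D2 cover ran from 0% to 20.1%.

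**Figure D2:**
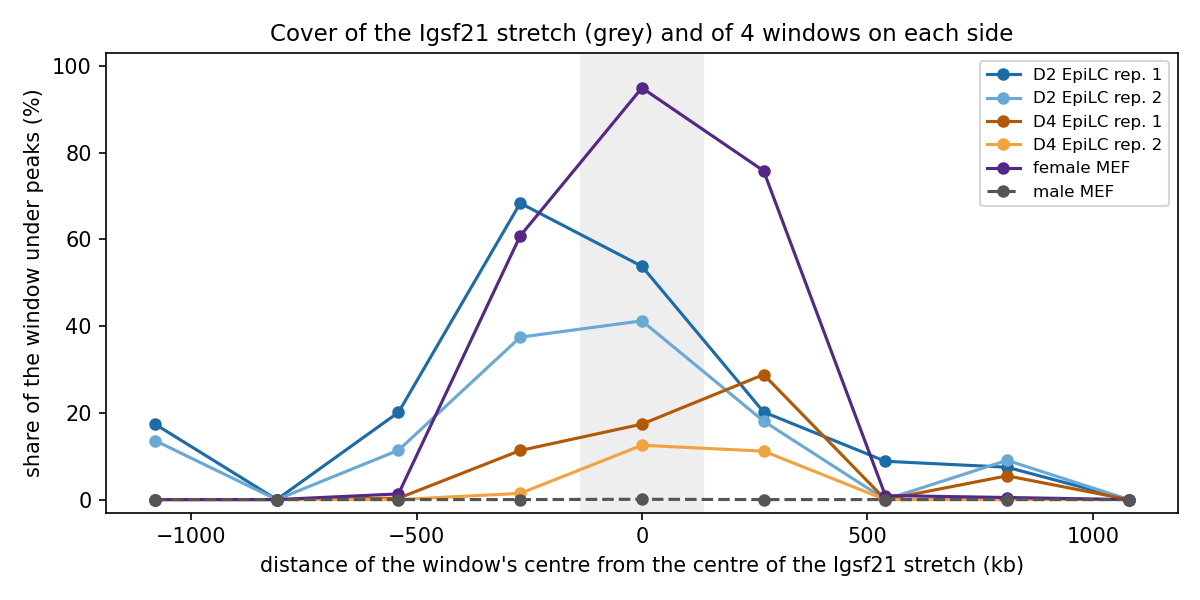
Share of each of 9 neighbouring windows of 270 kb that lay under peaks (vertical axis, %), by the distance of the window's centre from the centre of the Igsf21 stretch (horizontal axis, kb); each point is 1 list and the grey band is the stretch. Female MEF cover peaks at 94.95% in the stretch with 60.8% and 75.8% beside it, and falls to 1.31% and 0.927% one window further out.

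Each female list also had peaks outside the stretch on either side. D2 replicate 1 had the nearest ones at 139514460 to 139523044 and 139841596 to 139842670, with fold enrichments of 2.54 and 2.51. In D2 replicate 2 they were at 139533809 to 139550742 and 139832082 to 139833585, with fold enrichments of 2.73 and 2.72. D4 replicate 1 had them at 139547148 to 139550439 and 139835583 to 139836655 (2.67 and 2.66). In D2 replicate 1 these values lay within the range of the members, and in D2 replicate 2 and D4 replicate 1 they lay below the lowest members, at 2.74 and 2.71. D4 replicate 2 had its nearest peaks at 139453590 to 139456028 (3.03) and 139850175 to 139850950 (2.73). The first of these lay above the highest member of that list, at 2.98, and the other below the lowest, at 2.77. The female MEF neighbours were at 139518671 to 139534968 (2.98) and 140021554 to 140034152 (2.89), both below the lowest member, at 2.99.

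Along the stretch, D4 cover was confined to the part from 139700159 on, in both D4 lists. That position is the start of the first D4 peak, a split set after the values were seen. The 0 D4 peaks before it follow from this choice. In the 140.2 kb before it, D2 replicates 1 and 2 covered 39.2% and 29.1%, and female MEFs 96.1%. In the 129.8 kb from it on, the D4 lists covered 36.2% and 26.1%, the D2 lists 69.5% and 54.4%, and female MEFs 93.7%. The uncovered run of D4 replicate 1 went from 139550440 to 139700158 (149.7 kb) and that of D4 replicate 2 from 139456029 to 139719386 (263.4 kb). In D2 replicates 1 and 2 the longest uncovered runs were 32.3 and 36.04 kb, and in female MEFs 5.43 kb.

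In the first part of the stretch, which by the choice of the split held no D4 peak, both D2 lists had peaks. The longest segments shared by both D2 lists there lay at 139564945 to 139572587 (7.64 kb), 139577385 to 139586664 (9.28 kb) and 139657517 to 139666426 (8.91 kb). The last of these had closely matched borders, since the peak ran from 139657517 to 139666426 in replicate 1 (fold enrichment 2.78) and from 139656758 to 139666718 in replicate 2 (2.74).

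D2 replicate 1 entered the stretch with a peak from 139527541 to 139586664 (59.1 kb, fold enrichment 2.65), of which 26.7 kb lay inside. Its other peaks in the first part were shorter, at 139592098 to 139595294 (fold enrichment 2.79), 139600350 to 139603670 (2.56), 139635945 to 139644029 (2.55) and 139685551 to 139690370 (2.54). The highest of these 4 was also the shortest, at 3.20 kb. In D2 replicate 2 the same part was split into 7 peaks. The first 3 of them, at 139555636 to 139560726 (fold enrichment 2.84), 139564945 to 139572587 (2.77) and 139577385 to 139587078 (2.76), lay along the 59.1 kb peak of replicate 1. Further peaks were at 139594783 to 139595390 (0.608 kb, 2.76), 139631432 to 139633997 (2.89) and 139678614 to 139688138 (2.80). The one at 139631432 had no counterpart in replicate 1, and the others overlapped a replicate 1 peak.

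The male peak also lay in this first part. It spanned 179 bp, from 139585896 to 139586074, with a fold enrichment of 2.92 and a −log10 q of 1.54, a value that 199 of the 326 male peaks share. It fell inside a peak of each D2 list and of the female MEF list, and outside both D4 lists. A male peak was present in 3.51% of all windows of 270 kb. The nearest other male peaks were 2802 kb before and 1686 kb after the stretch. The rest of the stretch, including the whole of the 204.3 kb female MEF peak, had no male peak, though the male list called nothing below a −log10 p of 4.57, while the 38 female peaks of the stretch were called down to 2.90.

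In the part from 139700159 on, the lists of both days and of female MEFs had peaks over the same span, here called the block. It was a single peak in D2 replicate 1 and separate pieces in the other EpiLC lists. Its fullest EpiLC form was a D2 replicate 1 peak from 139708267 to 139782661 (74.4 kb, fold enrichment 2.69, −log10 q 1.80), the longest EpiLC peak of the stretch. Over that span D2 replicate 2 had 3 peaks covering 79.5%, D4 replicate 1 had 5 covering 52.2%, D4 replicate 2 had 4 covering 38.0%, and the female MEF list covered it whole. In D2 replicate 2 the largest pieces were at 139724251 to 139747818 (23.6 kb, fold enrichment 2.89) and 139752783 to 139787737 (35.0 kb, 2.85). In D4 replicate 1 they were at 139732681 to 139752779 (20.1 kb, 2.94) and 139774087 to 139784412 (10.3 kb, 2.78). D4 replicate 2 had a piece at 139762687 to 139784895 (22.2 kb, 2.98), the eighteenth longest of its 1148 peaks.

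The smaller pieces of the block and the peaks just before it filled in the rest. D2 replicate 1 had a peak at 139700745 to 139704191 with the lowest fold enrichment of all members (2.47), and D2 replicate 2 had peaks at 139704343 to 139707411 (2.78) and 139712037 to 139717729 (2.83). D4 replicate 1 began with peaks at 139700159 to 139702487 (2.71) and 139708339 to 139715684 (2.80), followed by short ones at 139721806 to 139723702 (2.95) and 139767984 to 139768868 (2.92). These short peaks lay above the list's median fold of 2.82. The peak at 139700159, also shorter than the list median at 2.33 kb, had the lowest fold of the D4 replicate 1 members. D4 replicate 2 had peaks at 139719387 to 139722012 (2.77), 139733065 to 139734730 (2.78) and 139741904 to 139745924 (2.83). The last 2 of these lay within the 20.1 kb peak of D4 replicate 1.

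The block was singled out after its values were seen. Its end was taken in each EpiLC list as the peak end nearest to that of the longest D4 replicate 2 peak. By this choice the block ended at 139782661 and 139787737 in D2 replicates 1 and 2, and at 139784412 and 139784895 in D4 replicates 1 and 2. The spread of 5076 bp is therefore partly built in. In D4 replicate 1 a further peak began at 139789643, while a gap of 15.2 kb lay inside the block. The female MEF peak went on from these ends for 18474 to 23550 bp. The beginning of the block was less shared, although D2 and D4 replicate 1 had peaks that started 72 bp apart, at 139708267 and 139708339. In general borders differed between replicates. Of the 10 D2 replicate 1 peaks, 6 had an end within 5 kb of a replicate 2 end, and of the 7 D4 replicate 1 peaks, 2 did. Replicate 2 had 12 peaks to match at D2 and 5 at D4. The share over whole lists was not computed, so these counts do not compare the days.

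Beyond the block each EpiLC list held 1 or 2 more peaks. D2 replicate 1 had them at 139794619 to 139802211 (fold enrichment 2.61) and 139818770 to 139823607 (2.67), and D2 replicate 2 at 139823189 to 139826489 (2.75). D4 replicate 1 had a peak at 139789643 to 139793746 (4.10 kb), whose fold enrichment of 3.04 and −log10 q of 2.17 were the highest of the 34 EpiLC peaks of the stretch. No peak of D4 replicate 2 overlapped it. That list had a last peak at 139826696 to 139830254 (2.87), across the border of the stretch.

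All 5 female lists together covered 4 segments, all within the block. They lay at 139733065 to 139734730 (1.67 kb), 139741904 to 139745924 (4.02 kb), 139767984 to 139768868 (0.885 kb) and 139774087 to 139782661 (8.58 kb), 15.1 kb or 5.61% of the stretch. The 4 EpiLC lists alone gave the same 15.1 kb. Without D4 replicate 2 the length was 28.2 kb, and without D4 replicate 1 it was 25.7 kb, so each D4 library limited it. No female list covered 11.7 kb, and exactly 1 covered 84.9 kb, of which 82.9 kb was female MEF only.

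Replicates of a day shared part of their cover here. D2 replicates had 89.2 kb in common, 61.4% of replicate 1 and 80.2% of replicate 2. D4 replicates had 17.1 kb in common, 36.4% and 50.6%. Of the cover of D4 replicates 1 and 2, 86.3% and 83.6% lay under D2 replicate 1 and 63.8% and 82.5% under D2 replicate 2. These D2 lists covered 53.8% and 41.2% of the stretch. In the part from 139700159 on, which held all D4 cover, they covered 69.5% and 54.4%, so much of this overlap goes with their high cover there. Only 8.00 kb of D4 cover lay outside both D2 lists. All D4 cover lay under female MEF peaks, which leaves little room for another outcome as these filled 94.95% of the stretch. The labels do not tie a list to its input, so EpiLC lists may share one.

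Enrichment was modest in all members. The fold enrichment of the 39 peaks had a median of 2.79 and ran from 2.47 to 3.08. Within lists it ran from 2.47 to 2.79 in D2 replicate 1 (list median 2.61), 2.74 to 2.89 in D2 replicate 2 (2.80), 2.71 to 3.04 in D4 replicate 1 (2.82), 2.77 to 2.98 in D4 replicate 2 (2.85) and 2.99 to 3.08 in female MEFs (2.90). The members thus lay around the medians of the EpiLC lists and above that of the female MEF list. By fold the 4 female MEF peaks exceeded 72.7% to 88.5% of their list. By length 3 of them exceeded 96.1% to 99.5% of it and the other, of 4.70 kb, 44.8%.

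The deposited −log10 q of the members ran from 1.34 to 2.17, and the lowest values of the 6 lists from 1.301 to 1.340. Below the median of their own list were 4 of 10 and 4 of 12 members in D2 replicates 1 and 2, 2 of 7 and 3 of 5 in D4 replicates 1 and 2, and 0 of 4 in female MEFs. Of the 39 members, 1 had a −log10 q of at least 2, the D4 replicate 1 peak at 139789643 to 139793746. With that minimum the female MEF, D2 and D4 replicate 2 cover of the stretch was 0 kb and that of D4 replicate 1 was 4.10 kb, so the order of the lists rested on peaks below it. In whole lists 5.10% to 15.6% of peaks reached it.

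**Figure D3:**
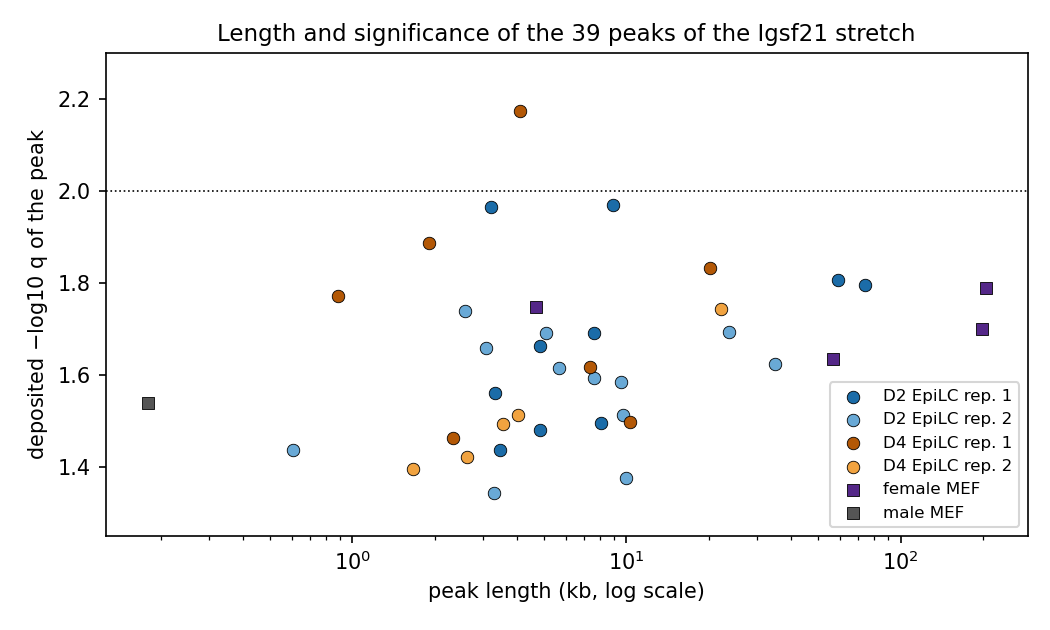
Deposited −log10 q (vertical axis) against length (horizontal axis, kb, log scale) of the 39 peaks, one point per peak, EpiLC lists as circles and MEF lists as squares; the dotted line marks a −log10 q of 2. A single peak, of D4 replicate 1 (2.17), lies above the line, and the longest female MEF peak (204.3 kb) lies at 1.79.

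The stretch was set beside the other female MEF peaks of at least 100 kb. There were 21 such peaks, 8 of them on chromosome 4, and 2 overlapped the stretch. The 204.3 kb peak was covered to 53.4% and 43.7% by D2 replicates 1 and 2 and to 23.0% and 14.9% by the D4 replicates. The 197.6 kb peak was covered to 24.1% and 20.3% at D2 and to 28.8% and 15.7% at D4, so the days overlapped on it. Of the 19 others, the mean D4 cover had a median of 3.30% and was 0% on 6, and 3 exceeded the 19.0% mean of the 204.3 kb peak. The mean D2 cover of the others had a median of 30.9% and ran from 0% to 100%.

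On chromosome 4 itself, the 6 other long female MEF peaks were covered to 30.9% to 89.3% at D2 and to 0% to 12.6% at D4 (means of 2 lists). The 2 peaks that overlapped the stretch, at 19.0% and 22.2%, had the highest mean D4 cover of the 8. The 22.2% belongs to the 197.6 kb peak, of which only 10.9 kb lay in the stretch. It therefore describes mostly the sequence past the stretch. Single D4 lists overlapped, since another long peak reached 18.0% in D4 replicate 2. In that list the 2 peaks that overlapped the stretch had 14.9% and 15.7%. This is a description of peaks chosen with D4 cover in view and was not tested.

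**Figure D4:**
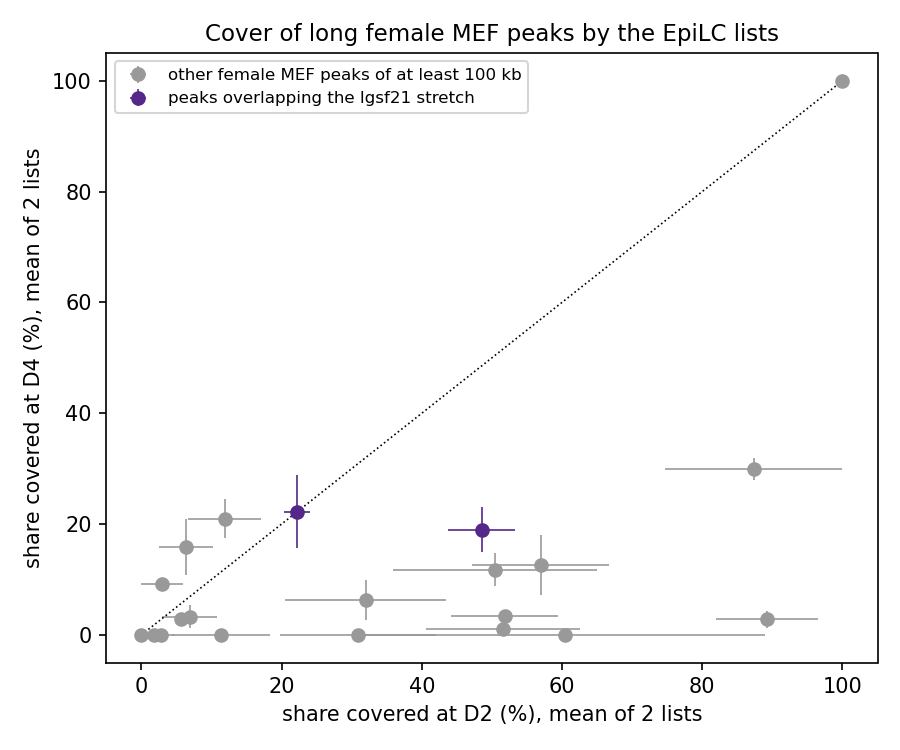
Share of each of the 21 female MEF peaks of at least 100 kb that lay under D4 peaks (vertical axis, %) against the share under D2 peaks (horizontal axis, %); points are means of 2 lists, bars reach to the 2 single lists and the dotted line marks equal cover. The 2 peaks overlapping the Igsf21 stretch lie at 48.5% and 22.2% of D2 cover and at 19.0% and 22.2% of D4 cover. Only 10.9 kb of the second lies in the stretch.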

How the data were processed

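Xist pulldown DNA was sequenced from 6 libraries, with 1 peak list each. MACS2 2.2.7.1 and Bowtie2 2.2.9 are named with build mm9, per the submitters' processing notes, beside bedtools 2.26.0, SAMtools 1.9, Trim Galore 0.4.1 and Picard. Their settings were not stated. The authors' lists give, per peak, a start and an end, a deposited score (not used), a deposited fold enrichment (a linear ratio), and a deposited −log10 p and −log10 q (p-value and q-value). They hold no read counts, so depth is unknown and no counting interval is given.

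The members and lists were chosen with earlier results of these data known, and by rule the text gives all members, the nearest peaks outside, the neighbouring genes and, as ranges, the other long female MEF peaks. Peaks were clipped to the stretch and merged with Python 3.11.15 and pandas 2.3.3. Background windows of 270 kb were tiled from the first base to the last peak of each autosome. The interval code was tested on simulated lists. Replicate numbers paired D2 with D4 only in an alternative, the replicate block. No test was run. Alternatives were a −log10 q of at least 2, a fold of at least 3, lists reduced to 326 peaks, whole peaks, 100 kb added on each side, peaks under 10 kb apart joined, a peak required to lie mostly inside, each EpiLC library left out, and other windows. The covered length of an EpiLC list, and a difference that used these lengths, counted as moved when it changed by more than 1 SD of the replicates. For a peak count, the covered length of a MEF list or a length shared by all lists, the limit was a change of more than 1.5 times. Shares of windows were read against their 95% Wilson interval.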

Additional observations from a re-analysis of the deposited data

How the results depend on the processing

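The excess of female MEF over mean D4 cover (216.0 kb) reversed to -2.05 kb with a −log10 q of at least 2. It was 232.2 kb with lists of equal number, 360.8 kb with 100 kb added on each side and 423.0 kb with whole peaks. The D2 minus D4 difference (87.9 kb) reversed to -24.2 kb with lists of equal number and to -2.05 kb with a −log10 q of at least 2 or a fold of at least 3, since most peaks of the stretch fall below these limits. It was 133.0 kb with the longer stretch. With the replicate block, the mean of the within-replicate differences, it was 87.9 kb, the same value by construction, and leaving out 1 EpiLC library gave 70.9 to 104.9 kb. The length covered in all 5 female lists (15.1 kb) was 0 kb with the −log10 q limit, the fold limit or lists of equal number, 30.2 kb with joined peaks, and 15.4 to 28.2 kb with 1 EpiLC library left out.

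The share of windows with more female MEF than D4 cover (29.1%) was 2.91% over all windows, 38.4% with lists of equal number and 22.4% with the −log10 q limit. That with more D2 than D4 cover (64.9%) was 17.8%, 19.4% and 36.3%. Shifting the windows gave 28.3% and 66.2%. Depth is unknown, so an uncovered part of a list may be below detection.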
